A study of Mus musculus with 8 samples.

Results

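Interneurons of the Lamp5 and Reln type were examined in single-nucleus RNA counts from the mouse cerebral cortex. Members were chosen by UMIs (unique molecular identifiers, 1 for each captured transcript) of 10 genes. A nucleus was kept with 500 or more genes detected and mitochondrial UMIs of at most 2%. A member then had at least 2 UMIs of Gad1 plus Gad2, at most 1 of Slc17a7, at least 3 of Adarb2, at least 3 of Reln, Lamp5, Ndnf and Kit together, 0 of Vip and at most 1 of Sst. The rule found 1005 members among 77185 kept nuclei (1.30%), with 110 to 146 in each library. They made up 18.03% of the 5573 kept nuclei that passed the Gad1, Gad2 and Slc17a7 conditions, here called GABAergic nuclei.

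The animals were C57BL/6J mice at postnatal day 25, 4 wild type (WT) and 4 Chd8+/- (Chd8het). Each genotype had 2 males and 2 females, and each animal gave 1 library. The cortex was frozen after its medial part had been taken off, and per the labels each of 4 pairs of animals shared litter and sex. The labels do not say which animals form a pair, so the pairs used below are matched on sex and replicate number. Libraries were made from nuclei with the 10x Genomics 3' kit (v3 chemistry). Within each sex and genotype, replicate 1 had a single index and replicate 2 a dual index. The allele of Chd8 is not described in the sources used here.

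Interneurons that express Adarb2 arise in the caudal ganglionic eminence (CGE) of the embryonic brain. Among others, they include a Vip branch and a branch marked by Lamp5 and Reln. The latter includes the neurogliaform cells, which are frequent in layer 1, carry the peptide NPY in many cells and release GABA diffusely around a dense axon, reaching GABA-A and GABA-B receptors with slow kinetics. Ndnf marks many layer 1 members of this branch, and Reln encodes the secreted glycoprotein Reelin, which acts through the receptors encoded by Vldlr and Lrp8 and the adaptor encoded by Dab1.

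The 8 libraries held 69503598 to 98132783 UMIs and 7799 to 10804 kept nuclei each. Members carried 8148482 UMIs in all, and the median UMIs per member ran from 5665 to 8555 over libraries. The median was 7122 ± 1115 in WT and 7001 ± 1036 in Chd8het libraries (mean ± SD, n = 4 each; exact permutation test, two-sided, p = 0.914). Single-indexed libraries had 6370 ± 500 and dual-indexed ones 7753 ± 896 (exact permutation p = 0.0857). The 28 pairs of libraries shared 27 to 63 barcodes each, and no member barcode was shared. Levels are given in CPM, the UMIs of a gene per 1000000 UMIs summed over the members or another set of nuclei of a library. The sum takes only genes that passed the count filter in that set, and it is scaled between libraries. In small sets more UMIs fall outside this sum, so levels of unlike sets are not on exactly the same scale. Summed marker lists, all other kept nuclei and summed counts of picked nuclei are per 1000000 of all UMIs, unscaled.

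Chd8 encodes a chromatin remodelling helicase and was measured first because the genotype rests on it. In members of WT male 1, male 2, female 1 and female 2 its level was 83.8, 96.4, 78.5 and 89.4 CPM. The libraries labelled Chd8het, ordered likewise, had 85.3, 97.6, 110 and 78.3 CPM. The groups overlapped, and the log2 difference of Chd8het minus WT was 0.08 (SE 0.15, unadjusted p = 0.597, edgeR quasi-likelihood test). In all other kept nuclei Chd8 stood at 78.9 ± 2.78 CPM in WT and 80.5 ± 6.51 CPM in Chd8het libraries (mean ± SD, n = 4 each). The counted UMIs are not assigned to either allele, so the level does not check the genotype labels, and the 4 libraries are called Chd8het by their label throughout.

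The genes of the rule defined the members, and their levels describe what was chosen. Reln had a UMI in 78.4% of members (median of 8 libraries, 76.0% to 81.4%), Kit in 78.0% (73.6% to 80.9%), Lamp5 in 56.4% (53.6% to 65.9%) and Ndnf in 38.4% (28.6% to 40.9%). All of these 4 genes were detected together in 197 members (19.6%), Reln, Lamp5 and Kit without Ndnf in 166 (16.5%), Lamp5 and Kit alone in 141 (14.03%) and Reln alone in 118 (11.7%). Ndnf lay almost wholly within the Reln nuclei: it was detected in 44.3% of the 790 members with Reln and in 5.58% of the 215 without. Kit followed Lamp5, with a UMI in 86.5% of the 592 members with Lamp5 and in 64.4% of the 413 without. The rule asks for 3 UMIs over these genes, so a nucleus that lacks one must hold more of the others, and these shares carry that constraint.

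The label was checked on genes outside the rule. Npy and Sv2c, which mark neurogliaform cells (Sv2c encodes a synaptic vesicle protein), each had a UMI in 63.7% of members (medians of 8 libraries), against 12.9% each of excitatory nuclei (at least 5 Slc17a7 UMIs and no Gad UMI). The excitatory nuclei were deeper, with a median of 12972 UMIs against 6679. Their share can hold transcripts of their own as well as free RNA, so it is a comparison and not a measure of free RNA. Astrocyte nuclei (at least 5 Slc1a3 and 2 Aqp4 UMIs, median 3641 UMIs) had other shares, with Lamp5 in 6.36%, Gabrd in 0% and Id2 in 18.9%. Of the genes of the rule, Lamp5 had a UMI in 40.6% of excitatory nuclei, Reln in 17.7%, Kit in 4.37% and Ndnf in 0.895%, so the detection of Lamp5 alone sets members little apart. Prox1, a transcription factor gene of CGE interneurons, was detected in 44.2% of members and 1.83% of excitatory nuclei. For Nr2f2, another CGE factor gene, the shares were 28.6% and 1.401%. Cplx3, which marks Lamp5 cells, was detected in 9.90% and 1.66%. Id2 (12.9% and 12.3%) and Gabrd (24.8% and 28.2%) had shares close to those of excitatory nuclei. Lhx6, which marks interneurons of the medial ganglionic eminence (MGE), was detected in 1.68% of members, and Nkx2-1 and Sncg had a median share of 0. Other genes listed with the Sncg class were present: Cnr1 in 56.3% of members and 37.3% of excitatory nuclei, Cxcl14 in 18.8% and 3.88%, and Cck in 33.0% and 50.3%. Summed over their lists, Sncg-class markers stood at 355 CPM and MGE markers at 2778 CPM in members (medians of 8 libraries), the latter mostly Nxph1. Nos1 was detected in 18.9% of members and 13.6% of excitatory nuclei, and Npas1 in 14.2% and 2.01%. Pax6 (3.93% and 1.34%), Sp8 (3.53% and 0.143%) and Krt73 (0.357% and 0%) were rare in both. Npy, Sv2c, Prox1, Nr2f2 and Cplx3 thus had larger shares in members than in excitatory nuclei, as did Cnr1 and Cxcl14. Id2 and Gabrd did not stand apart. Lhx6, Nkx2-1 and Sncg were at or near 0 in members, but Nkx2-1 and Sncg also had a median share of 0 in excitatory nuclei.

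Members were set beside 3 other GABAergic classes from the same libraries, chosen by Adarb2, Vip, Sst and Pvalb: 455 Vip-type, 474 Sst-type and 228 Pvalb-type nuclei. The rules chose the classes by such levels, so the contrast has no test. Of 9679 genes with enough counts in members and Vip-type nuclei, 7.93% were higher and 7.72% lower in members in 8 of 8 libraries, and the counts of listed genes that follow are over genes of that set. Of 18 neurogliaform and Lamp5-class genes outside the rule, 11 were higher in all 8 libraries and 1 was lower. Sv2c averaged 293 ± 36.0 CPM in members (mean ± SD, n = 8) against 17.6 ± 9.31 CPM in Vip-type, 14.3 ± 8.25 CPM in Sst-type and 10.6 ± 10.2 CPM in Pvalb-type nuclei. Pde11a, a phosphodiesterase gene, averaged 662 ± 102 CPM in members, 94.0 ± 27.3 CPM in Vip-type and under 10 CPM in each of the Sst-type and Pvalb-type sums. Fgf13, whose product binds sodium channels, stood at 2632 ± 317 CPM against 634 ± 128 CPM in Vip-type nuclei. For these 3 genes the lowest member library lay above the highest library of every other class.

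Npy was less particular, at 383 ± 167 CPM in members and 315 ± 125 CPM in Sst-type nuclei, with overlapping libraries. Among transcription factor genes, Nfib stood at 1205 ± 87.8 CPM in members and 462 ± 49.5 CPM in Vip-type nuclei. Prox1 was lower in members (100 ± 14.1 CPM) than in Vip-type nuclei (255 ± 44.5 CPM) in all 8 libraries. All 7 Vip-class markers in the set, which does not count Vip, were lower than in Vip-type nuclei in all 8 libraries. Among the MGE markers, Nxph1, a neurexophilin gene, was the exception, at 2251 ± 273 CPM in members, 215 ± 86.8 CPM in Vip-type and 2762 ± 301 CPM in Sst-type nuclei, while Sox6 and Lhx6 stayed low (42.9 ± 32.6 and 3.31 ± 2.15 CPM, against 1133 and 82.3 CPM in Sst-type nuclei). Of 14 serotonin, acetylcholine and monoamine receptor genes, 4 were higher than in Vip-type nuclei in 8 of 8 libraries and 7 lower. The higher ones were Htr1f and Htr2a (serotonin), Chrna7 (nicotinic acetylcholine) and Adra1a (adrenergic), with Chrna7 at 367 against 136 CPM, Htr2a at 81.4 against 11.8 CPM and Adra1a at 631 against 245 CPM. Among the lower ones was the muscarinic receptor gene Chrm3 (451 against 1251 CPM). Of 10 neuropeptide and peptide receptor genes, 2 were higher in all 8 libraries (Npy and the opioid receptor gene Oprm1) and 6 lower. Of 25 synaptic adhesion genes, 2 were higher in all 8 libraries (Lrrtm3 and Il1rapl1) and 11 lower, Cdh12 among them (148 against 798 CPM). Over all 9679 genes of the set, 7.93% were higher and 7.72% lower in all 8 libraries.

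**Figure D1:**
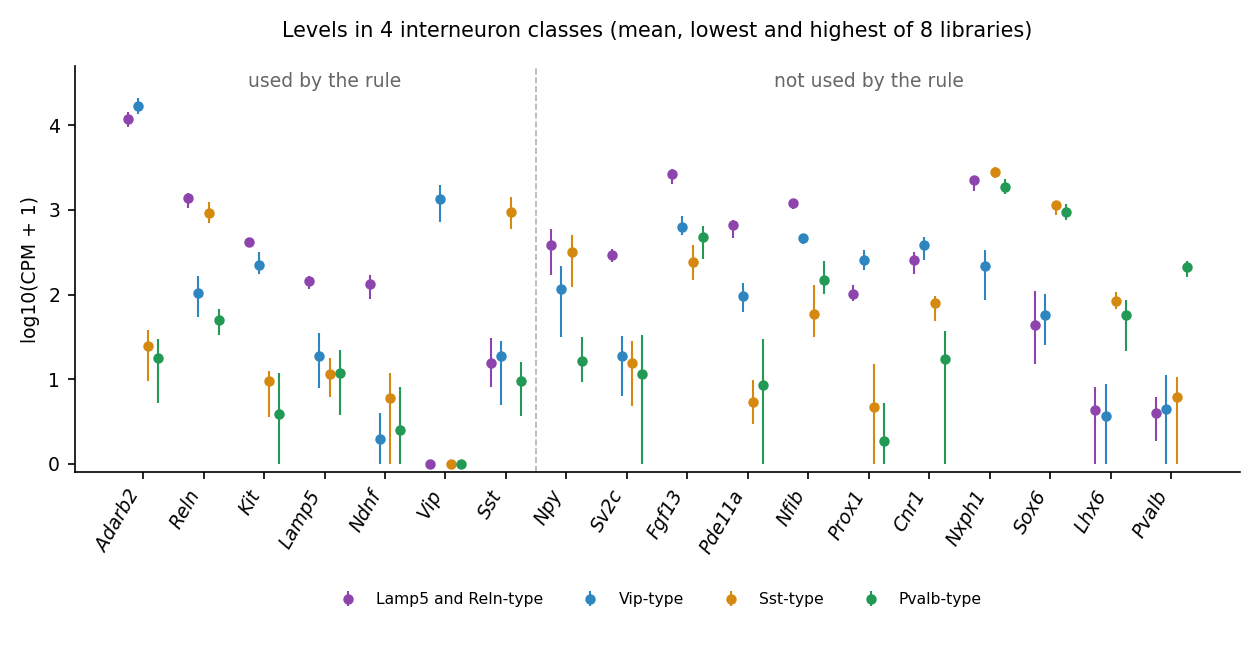
Levels of 18 genes in Lamp5 and Reln-type, Vip-type, Sst-type and Pvalb-type nuclei; points are means of 8 libraries on a log10(CPM + 1) axis and bars run from the lowest to the highest library. Right of the dashed line, Sv2c, Fgf13 and Pde11a stand apart from all other classes, Nxph1 is shared with the Sst-type and Pvalb-type sums, and Prox1 is lower than in Vip-type nuclei.

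Nuclei next to the Adarb2 threshold differed from the bulk of members in Npy and Lhx6, on few UMIs. The 9 members with exactly 3 Adarb2 UMIs had Npy at 8.44 CPM (1 UMI) and Lhx6 at 76.0 CPM (9 UMIs) in their summed counts. The 25 nuclei with 2 Adarb2 UMIs that met all other conditions had 17.2 and 60.4 CPM (4 and 14 UMIs). All members together had 347 CPM of Npy and 3.31 CPM of Lhx6 on this unscaled sum. At the other threshold, the 88 members with exactly 3 UMIs over Reln, Lamp5, Ndnf and Kit had Npy at 495 CPM, and the 89 nuclei with 2 had 382 CPM. Prox1 was at 114 and 50.3 CPM, Sv2c at 196 and 247 CPM, Cplx3 at 11.7 and 1.57 CPM (7 UMIs and 1 UMI), and Lhx6 had 3 and 7 UMIs. A further 73 nuclei met every condition except for 1 Vip UMI and had Npy at 340 CPM and Lhx6 at 4.62 CPM, close to all members. In these 73 nuclei and in all members, Sv2c was at 208 and 286 CPM, Prox1 at 77.0 and 97.1 CPM, and Npas1 at 49.3 and 36.4 CPM.

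Whether genotype altered how many such nuclei were captured was asked first. In WT male 1, male 2, female 1 and female 2, members made up 1.240%, 1.705%, 1.103% and 1.403% of kept nuclei. Their Chd8het counterparts had 1.120%, 1.406%, 1.082% and 1.498%. The ranges overlapped, at 1.36% ± 0.259 in WT and 1.28% ± 0.207 in Chd8het (mean ± SD, n = 4 each), a difference of -0.09 percentage points (exact permutation test, two-sided, p = 0.6). It was -0.07 points within the single-indexed and -0.10 points within the dual-indexed libraries, and without WT male 2 it turned to 0.03 points. By index type the groups did not overlap: a mean of 1.136% with single and 1.503% with dual index (exact permutation p = 0.0286, the smallest that 70 arrangements allow). The GABAergic share moved the same way, from 6.26% to 8.29% of kept nuclei, but not every class did. Vip-type nuclei went from 0.541% to 0.647%, Sst-type from 0.622% to 0.599% and Pvalb-type from 0.356% to 0.235%. Of GABAergic nuclei, members were 18.2% under either index type (exact permutation p = 1), with 18.6% ± 1.88 in WT and 17.8% ± 0.614 in Chd8het libraries (p = 0.457). Thinned to 3000 UMIs per nucleus, which left 610 members of 60499 nuclei, the shares were 1.08% ± 0.159 in WT and 0.949% ± 0.0744 in Chd8het libraries (exact permutation p = 0.229). By index type the thinned shares were 0.936% with single and 1.09% with dual index (exact permutation p = 0.0857). The thinned share was lower in Chd8het in 4 of 4 pairs of the same sex and replicate number (exact sign-flip permutation p = 0.125, the smallest that 4 pairs allow).

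**Figure D2:**
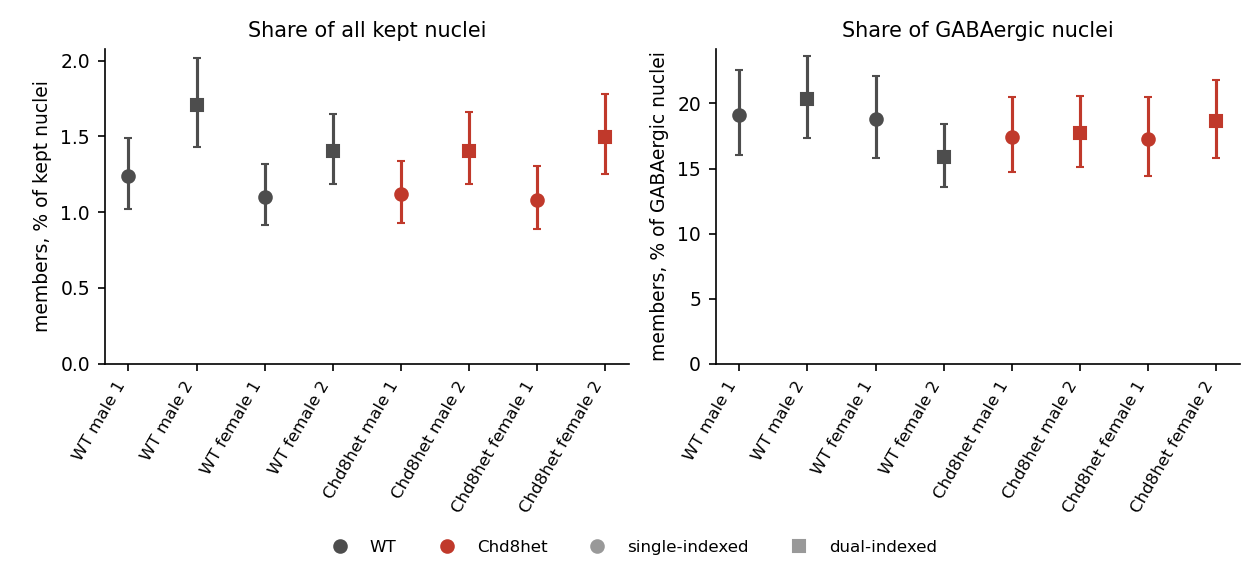
Members as a percentage of kept nuclei (left) and of GABAergic nuclei (right) in each library; bars are exact 95% binomial intervals for counting error only, colours give genotype and marker shapes index type. Dual-indexed libraries sit above single-indexed libraries on the left and not on the right, and the genotypes overlap in both.

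To describe variation within the class, the 298 members with at least 2 Lamp5 UMIs were compared with the 413 members with 0. Each library gave 2 sums, with the library as a block, and members between these counts were left out. Lamp5 is itself a gene of the rule, so members with 0 entered only with at least 3 UMIs of Reln, Ndnf and Kit together. The calls below carry that constraint and describe this division of the members. The genes higher in Lamp5-positive nuclei included 6 of 16 neurogliaform genes tested, and of the 12 genes named as lower, Cadps2, Megf10, Synpr and Npas1 differed most. Of 7403 genes tested, 192 were higher (2.59%) and 309 lower (4.17%) in the Lamp5-positive sums at adjusted p under 0.05 (edgeR quasi-likelihood test, Benjamini-Hochberg). These calls include Lamp5, Kit and Gad2 (higher) and Adarb2 (lower), which set the rule or the division and count only as description. The DESeq2 Wald test called 297 of the same 501 genes, with the direction kept in 501. Lamp5-positive nuclei were deeper (a mean of 9172 UMIs against 7733). After thinning to 3000 UMIs, with sides still set by the Lamp5 UMIs before thinning, 412 of the 501 genes could be tested. Of these, 290 were called and 411 kept their direction.

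Among the genes lower in Lamp5-positive nuclei, Synpr encodes synaptoporin, a synaptic vesicle membrane protein. Its lowest, median and highest library was at 36.9, 65.0 and 129 CPM in Lamp5-positive and at 319, 402 and 660 CPM in Lamp5-negative sums. The log2 difference was -2.67 (SE 0.13, adjusted p = 1.37e-15), with no overlap. Cadps2, which encodes an activator of dense-core vesicle release, ran from 31.7 over 57.7 to 295 CPM (lowest, median, highest) against 479, 716 and 971 CPM. It fell by 3.11 on the log2 scale (SE 0.20, adjusted p = 2.8e-12) and the groups again did not overlap. Npas1, from the list of CGE and pan-interneuron transcription factor genes, was at 12.5 ± 12.1 against 72.7 ± 22.8 CPM (mean ± SD, n = 8; log2 -2.67). Sst-type nuclei, an MGE class, averaged 76.9 CPM of Npas1. Col25a1, a membrane collagen gene, was at 102 ± 61.3 against 505 ± 132 CPM (log2 -2.35). Megf10, an engulfment receptor gene, was at 6.44 ± 7.33 against 54.3 ± 17.7 CPM (log2 -2.90). These 5 were the genes without overlap among the 12 named on the lower side. The other 7 were Syt6, Nell1os, Cntnap5b, 8030451O07Rik, Nell1, Gm15584 and March3 (log2 -2.57 to -2.003). Vip-type nuclei averaged 1676 CPM of Synpr and 90.2 CPM of Npas1, above the Lamp5-negative sums. Their Cadps2 (264 CPM), Col25a1 (92.4 CPM) and Megf10 (19.7 CPM) were below those sums. Lamp5-negative sums and Vip-type nuclei had 344 and 318 CPM of Cntnap5b, 331 and 277 of Nell1, 104 and 122 of 8030451O07Rik, and 70.1 and 25.8 of Syt6. Whether Lamp5-negative members include nuclei of other Adarb2 classes was not tested. Nell1os lies antisense to Nell1 and Gm15584 antisense to Brinp3, and their reads may not be separate, since the counting by strand is not given in the sources used here.

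Differences on the higher side were smaller. Unc5c, a netrin receptor gene, ran from 1646 over 2833 to 3177 CPM (lowest, median, highest) in Lamp5-positive and from 1173 over 1535 to 1745 CPM in Lamp5-negative sums, a log2 difference of 0.79 (SE 0.08, adjusted p = 6.21e-08). It was higher in 8 of 8 libraries, although the 2 ranges met at their ends. Alk, a receptor tyrosine kinase gene, averaged 1531 ± 287 against 857 ± 156 CPM (log2 0.79), and Ndst3, a heparan sulfate sulfotransferase gene, 387 ± 94.6 against 188 ± 36.1 CPM (log2 0.99, adjusted p = 2.68e-08). Sema5a, a semaphorin gene, stood at 520 ± 99.7 against 280 ± 63.4 CPM (log2 0.86). Scube1 was the 1 gene of the 12 named here whose ranges did not overlap, at 68.4 ± 19.98 against 33.2 ± 11.8 CPM (log2 1.01). Dusp10, Gm28154, Gm16070, Cds1, Ipcef1 and Etv5 were also on this side, where the 12 log2 differences ran from 0.79 to 1.09. Gm28154 overlaps Pi15, Gm16070 overlaps Crispld1 and Ipcef1 overlaps Oprm1.

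Counts of called genes in the lists stand beside 2.59% higher and 4.17% lower over all genes tested. Of 16 neurogliaform genes tested, 6 rose with Lamp5, none fell and 10 were not called, with a median log2 difference of 0.55 against 0.01 over all genes tested. Sv2c was at 380 ± 72.1 against 223 ± 41.9 CPM (log2 0.73, adjusted p = 5.73e-06), with no overlap between the lowest Lamp5-positive library (295 CPM) and the highest Lamp5-negative library (285 CPM). Fgf13 was at 3433 ± 439 against 2065 ± 445 CPM (log2 0.71) and Npy at 496 ± 242 against 294 ± 189 CPM (log2 0.82), higher in 7 of 8 libraries. Gabra5, Pde11a and Cacna2d1, the last a calcium channel subunit gene, were the other 3. Of 10 CGE and pan-interneuron transcription factor genes, 3 fell (Npas1, Npas3 and Zeb2) and none rose, with a median of -0.17. Npas3 was at 1066 ± 462 against 2729 ± 719 CPM (log2 -1.46), while Prox1 was at 104 against 101 CPM and was not called. The cannabinoid receptor gene Cnr1, listed with the Sncg class, was at 183 ± 60.2 against 408 ± 68.3 CPM, with no overlap (log2 -1.21, adjusted p = 6.42e-08). Cck and Cxcl14 of the same list were not called. Nxph1 rose, at 2881 ± 487 against 1691 ± 320 CPM (log2 0.73), and it was the 1 of 4 MGE markers tested that was called.

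Among 22 genes for GABA synthesis, transport and reception outside the rule, 6 rose and 2 fell (median 0.14), where 2.59% and 4.17% of all genes tested did. The GABA-A subunit genes Gabrg3 (3843 against 2318 CPM, log2 0.68), Gabra5 and Gabrb2 and the GABA-B subunit gene Gabbr2 were among the higher ones. Gabra2 (163 ± 61.3 against 286 ± 62.9 CPM, log2 -0.87) and Gphn, the gene of the scaffold protein gephyrin, were the lower ones. Of 10 serotonin, acetylcholine and monoamine receptor genes, Htr1f rose (491 ± 129 against 286 ± 81.8 CPM) and Htr2c, Chrm3 and Chrna7 fell, Htr2c by the most, at 27.2 ± 19.4 against 134 ± 107 CPM (log2 -2.39, adjusted p = 3.7e-08). Of 24 potassium and HCN channel genes, 1 rose, a share near that over all genes, and 5 fell: Kcnc2 (464 ± 142 against 814 ± 125 CPM), Kcnb2, Kcnip1, Kcnq3 and Kcnj3. Of 23 synaptic adhesion genes, 4 rose (Il1rapl1, Ptprd, Lrrtm3 and Nlgn1) and 7 fell, among them Nrxn3 (5051 ± 1022 against 11919 ± 2523 CPM, log2 -1.28, adjusted p = 1.13e-13, no overlap) and the contactin-associated genes Cntnap5a, Cntnap5b and Cntnap4. Egfr and Nrg2 rose among 5 neuregulin and ErbB genes, and Nrg3 fell. None of the 12 other genes tested of the Reelin pathway and none of 9 CHD remodeller genes was called.

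**Figure D3:**
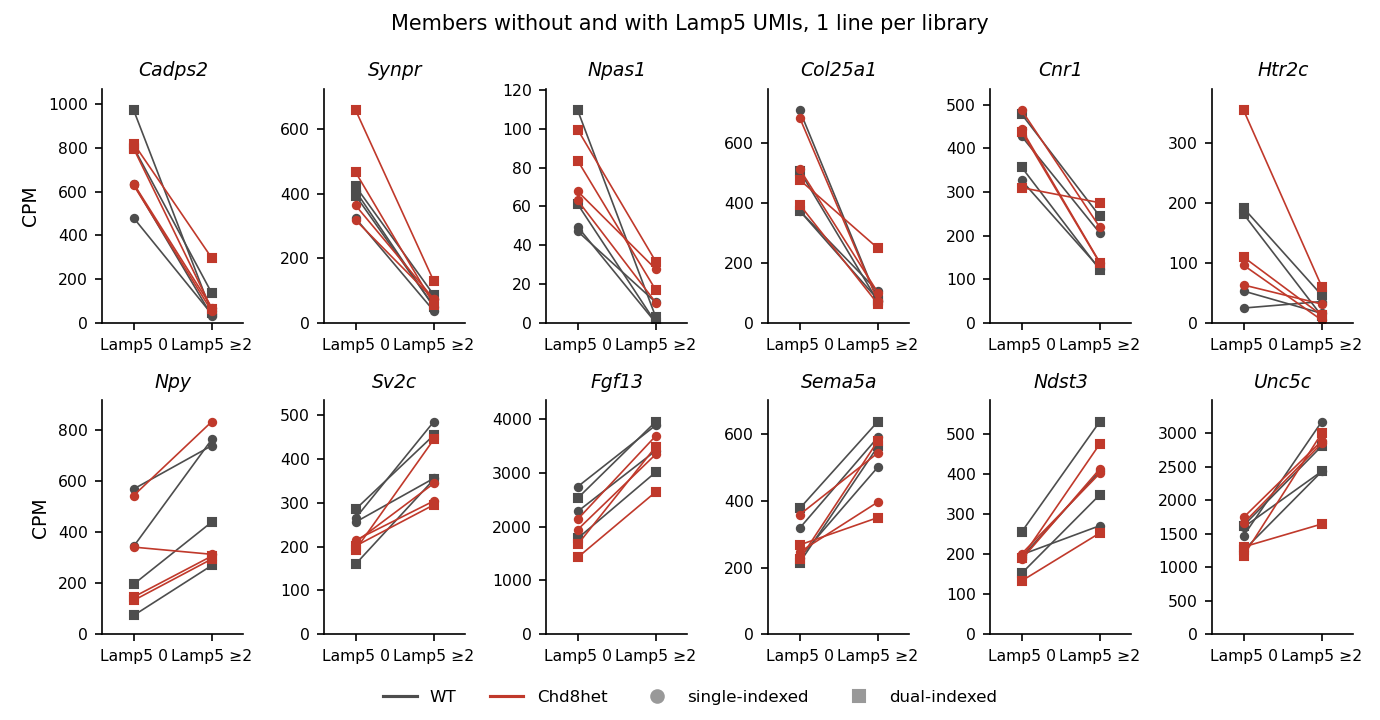
CPM of 12 genes in members with 0 Lamp5 UMIs and with at least 2; each line is 1 of 8 libraries, coloured by genotype, with marker shapes for index type and axes from 0. Cadps2, Synpr, Npas1, Col25a1 and Cnr1 are lower in Lamp5-positive sums in every library, Htr2c in 7 of 8, and Sv2c, Fgf13, Sema5a, Ndst3 and Unc5c are higher in every library.

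The share of Lamp5-positive members was 29.8% ± 5.26 in WT and 29.1% ± 7.06 in Chd8het libraries (exact permutation p = 0.914), and 33.2% in female against 25.7% in male libraries (p = 0.0571). The shares overlapped between the genotypes.

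The main comparison asked which genes differed between the libraries labelled Chd8het and WT within members. With sex in the model, 0 of 9825 genes (0%) passed adjusted p under 0.05 with the edgeR quasi-likelihood test, 240 had an unadjusted p under 0.05, and the DESeq2 Wald test also called 0 (64 at unadjusted p under 0.05). With no filter on low counts 18 genes were called, and with index type added to the model 5 were. The median log2 difference over all genes was 0.01. With a term for each pair of the same sex and replicate number (the replicate block), 2 of 10318 genes (0.0194%) were called, Rarb lower and Trpm3 higher, and 647 had an unadjusted p under 0.05. Leaving out WT male 2, WT female 2 or Chd8het female 2 from this fit gave 1, 15 or 28 calls. Which libraries came from one litter is not in the labels. In 214 genes (2.18%) the WT and Chd8het libraries did not overlap.

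Rarb encodes a retinoic acid receptor and lies at chr14:16430839-16819156 (GRCm38, minus strand), where Top2b and Gm48162 overlap it. WT male 1, male 2, female 1 and female 2 had 15.3, 180, 47.6 and 245 CPM. Their Chd8het counterparts had 5.93, 65.0, 6.46 and 114 CPM. It was lower in 4 of 4 pairs, yet the genotypes overlapped, and the dual-indexed libraries were the high ones in both. The log2 difference was -1.40 with the replicate block (SE 0.17, adjusted p = 0.00219) and -1.31 without (SE 0.72, adjusted p = 1). Leaving out WT male 2 from the block fit gave an adjusted p of 0.0754.

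The UMIs of Rarb sat in few nuclei. It was detected in 102 members (10.1%), and 673 of its 770 UMIs (87.4%) were in 20 nuclei with at least 5 each. By library these nuclei numbered 0, 7, 1 and 6 in WT and 0, 1, 0 and 5 in Chd8het, in the order above, so all but 1 came from dual-indexed libraries. This group was chosen after its values were seen and has no test. All 20 also held UMIs of Foxp2, Rgs9, Meis2 and Pde1c, which were detected in 8.93%, 5.38%, 15.8% and 17.97% of the other 985 members. Rgs9, a regulator of G-protein signalling known from the striatum, was at 864 CPM in their summed counts against 7.30 CPM in the other members, and Foxp2 at 758 against 16.01 CPM. The striatal markers Ppp1r1b (73.7 against 1.79 CPM) and Drd1 (47.2 against 4.48 CPM) were also higher. Adarb2 was at 1502 against 12050 CPM and Npy at 32.4 against 361 CPM. Their median was 14986 UMIs against 7013, and 3 of the 20 were predicted doublets. Summed over the listed striatal markers, members ran from 19.8 to 132 CPM in WT and from 28.1 to 84.3 CPM in Chd8het libraries. Without the nucleus richest in Rarb in each library, the level was 79.2 ± 81.1 in WT and 24.7 ± 33.99 in Chd8het per 1000000 UMIs (unscaled), and without predicted doublets 113 ± 104 and 43.9 ± 44.7, lower in 4 of 4 pairs each time. The part of all 20 nuclei in the Rarb difference was not tested.

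**Figure D4:**
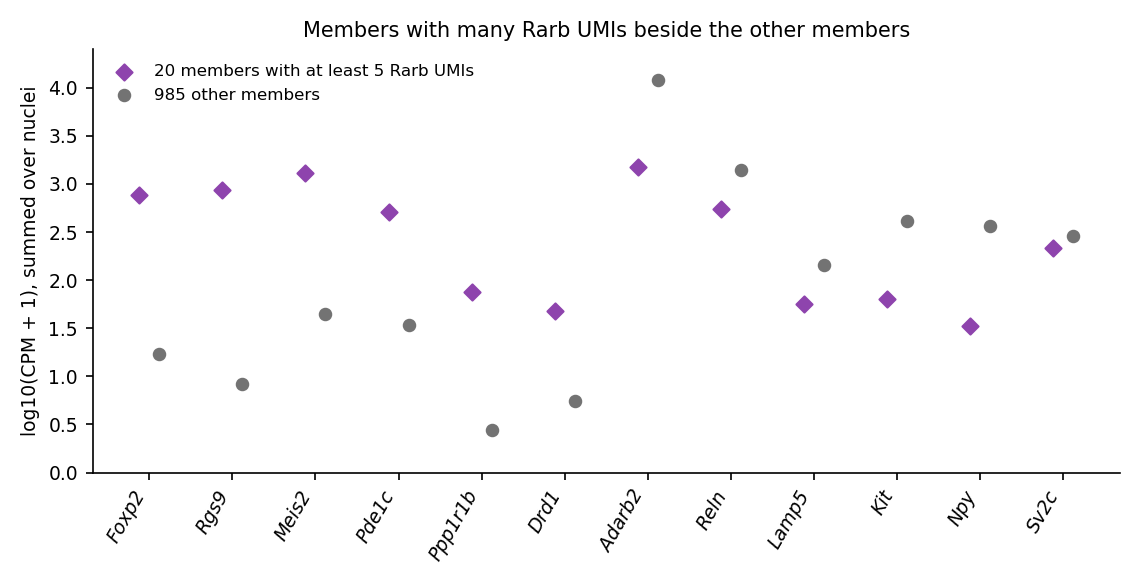
Levels of 12 genes, as log10(CPM + 1) of summed counts, in the 20 members with at least 5 Rarb UMIs (diamonds) and the other 985 members (circles). Foxp2, Rgs9, Meis2, Pde1c, Ppp1r1b and Drd1 lie higher in the 20 nuclei, and Adarb2, Reln, Lamp5, Kit and Npy lie lower.

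Trpm3 encodes a cation channel and lies at chr19:22139046-22995410 (GRCm38, plus strand), with 5 overlapping genes that include Mir204. Its level was 124, 418, 140 and 275 CPM in the WT libraries and 281, 627, 237 and 457 CPM in the Chd8het libraries, higher in 4 of 4 pairs with overlap between the genotypes. The log2 difference was 0.78 with the replicate block (SE 0.11, adjusted p = 0.00376) and 0.74 without (SE 0.34, adjusted p = 1). Of 2708 UMIs, 336 (12.4%) came from 1 nucleus of Chd8het female 2, a predicted doublet. Without predicted doublets the block fit gave 0.48 (adjusted p = 0.701), and without the nucleus richest in Trpm3 in each library 3 of 4 pairs were higher (171 ± 88.6 against 269 ± 170 per 1000000 UMIs, unscaled). In the other kept nuclei Trpm3 was at 342 ± 29.9 CPM in WT and 413 ± 71.2 CPM in Chd8het libraries.

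Grin2a, which encodes the GluN2A subunit of the NMDA receptor, differed in every pair and was spread over most nuclei. It was at 2922, 2995, 2547 and 3337 CPM in WT and 2225, 2399, 2018 and 2446 CPM in Chd8het libraries, with no overlap. The log2 difference was -0.38 (SE 0.11, unadjusted p = 0.00521, adjusted p = 1). With the replicate block the adjusted p was 0.0631 by edgeR, which is not a call, and 0.0444 by the DESeq2 Wald test. A UMI of Grin2a was present in 96.5% of members. Without the richest nucleus of each library it was 2773 ± 218 against 2172 ± 172 per 1000000 UMIs (unscaled), lower in 4 of 4 pairs. In the other kept nuclei it was at 2024 ± 410 CPM in WT and 1743 ± 173 CPM in Chd8het libraries.

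By the rule for naming, 12 genes with a higher and 12 with a lower mean in Chd8het libraries were chosen, all in the same direction in 4 of 4 pairs, and 8 on each side had no overlap between genotypes. Over all genes tested that share was 2.18%, and since small p and a shared direction chose these genes, nothing is read from their count. In the edgeR fits with and without the block, only Rarb and Trpm3 passed the adjusted test, both with the block. Some others were called only under an alternative setting, St6galnac3, Mag, E130114P18Rik and Grin2a among them. E130114P18Rik, a protein-coding gene that overlaps Nfia, was at 92.9 to 96.5 CPM in the 4 WT and at 44.5 to 73.2 CPM in the 4 Chd8het libraries (log2 -0.68, SE 0.15, unadjusted p = 0.000573). Fstl4, a follistatin-like gene, was at 503 ± 60.9 and 395 ± 22.4 CPM. In the other kept nuclei of WT and Chd8het libraries Fstl4 was at 483 ± 110 and 380 ± 76.2 CPM, also lower in Chd8het. E130114P18Rik was at 21.7 ± 1.81 and 23.6 ± 5.06 CPM there. The rest on this side were Gm45847, Ngly1, Nars, Ankrd31, Pawr, Gm49127, Zfp810 and Gm14330, of which Gm49127 is antisense to Cdh9 and Gm14330 to Grin2b. On the higher side, Csf2ra, a cytokine receptor gene, was at 41.3 ± 6.90 and 67.1 ± 6.53 CPM (log2 0.69). It was also higher in the other kept nuclei of Chd8het libraries (32.7 ± 3.08 and 42.3 ± 5.21 CPM). St6galnac3, a sialyltransferase gene, was at 59.0 to 77.9 and 78.2 to 150 CPM (log2 0.75), and Cntn6, a contactin gene, at 196 ± 22.2 and 271 ± 43.3 CPM. Hlcs, Etv1, Prex2, Cradd and 4930594M22Rik were higher too.

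Some of the higher genes are known from glia. Slc1a3, an astrocyte glutamate transporter gene, was at 38.4 ± 5.42 and 62.9 ± 16.2 CPM, and Mag, a myelin gene, at 8.71 ± 2.72 and 26.4 ± 13.3 CPM. None of 9 summed marker lists of other cell types passed an exact permutation test between genotypes. Summed astrocyte markers ran from 384 to 503 CPM in members of WT and from 468 to 637 CPM in members of Chd8het libraries, with overlap, and were higher in 2 of 4 pairs (unadjusted exact permutation p = 0.257). Oligodendrocyte and precursor markers ran from 330 to 416 and from 368 to 643 CPM and were higher in 3 of 4 pairs (p = 0.114, exact permutation test). The microglial sum averaged 193 and 178 CPM, the vascular sum 9.88 and 9.37 CPM and the striatal sum 70.2 and 51.6 CPM, each higher in Chd8het in 1 of 4 pairs. Vip-class markers were at 24.7 ± 6.19 and 34.6 ± 9.66 CPM, higher in 4 of 4 pairs (exact permutation p = 0.171), and excitatory markers at 540 ± 42.04 and 631 ± 93.7 CPM, higher in 3 of 4 (p = 0.143, exact permutation test). Sncg-class and MGE sums were higher in 2 of 4 pairs each. Of 7 oligodendrocyte and precursor genes tested, 0 were called and 3 had an unadjusted p under 0.05, all higher, where 148 of all 9825 genes were higher at that p. Their median log2 difference was 0.52, against 0.01 over all genes. The part of glial RNA in the differences was not tested.

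**Figure D5:**
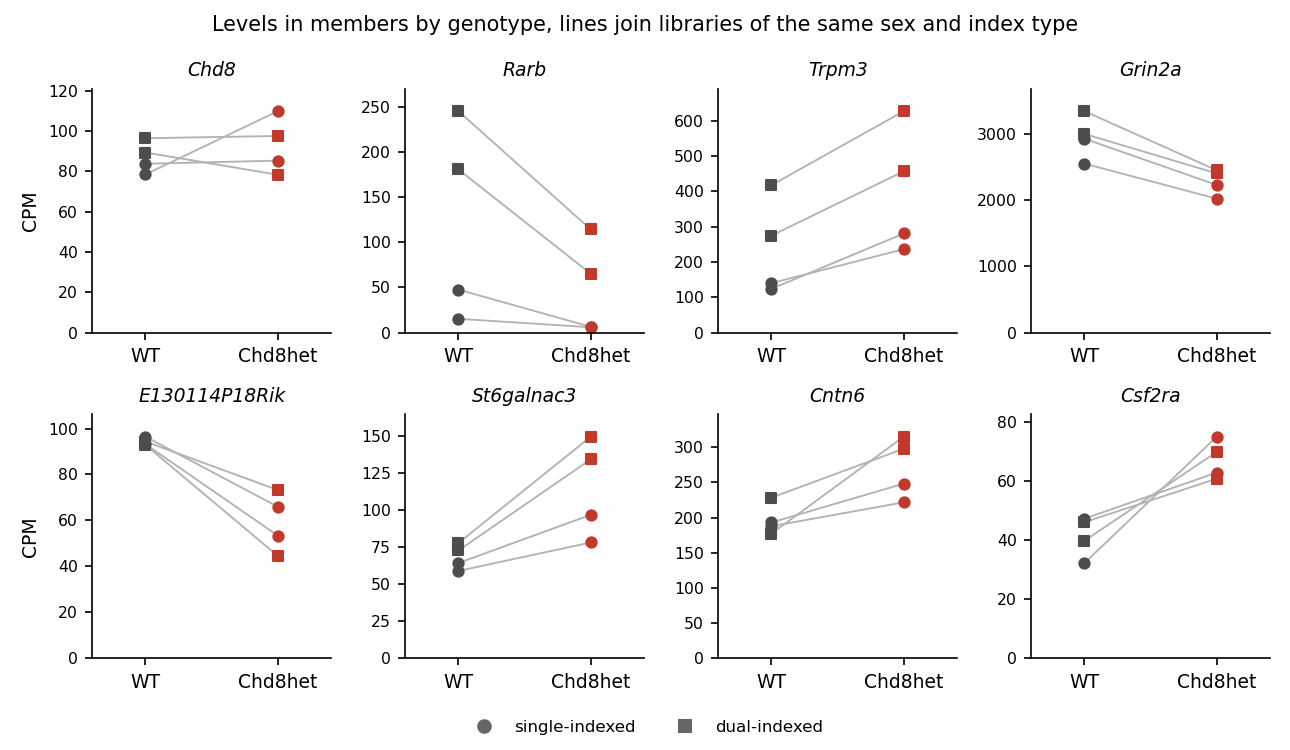
CPM in members of WT and Chd8het libraries for Chd8 and 7 named genes, on axes from 0; grey lines join each WT library to the Chd8het library of its sex and replicate number, and marker shapes give index type. Rarb and Trpm3 are higher with dual index within each genotype. Rarb is lower and Trpm3 higher in Chd8het in all 4 pairs, but their genotypes overlap. Grin2a and E130114P18Rik are lower in all 4 Chd8het libraries, and Chd8 overlaps.

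Lists chosen for this class and for Chd8 held no called gene in either fit. The 17 neurogliaform genes tested had a median log2 difference of -0.11 (7 positive, 10 negative), where Gabra5 was at 103 ± 22.2 and 79.8 ± 19.2 CPM (unadjusted p = 0.031). For 24 GABA genes the median was -0.04 (8 positive, 16 negative), and Gabrg3 was at 3252 ± 138 and 2708 ± 425 CPM (unadjusted p = 0.0278). For 14 Reelin pathway genes it was 0.02, where Lrp8 was at 94.2 ± 5.74 and 73.4 ± 14.003 CPM (unadjusted p = 0.0423). For 24 potassium and HCN channel genes the median was -0.06, for 24 synaptic adhesion genes 0.05, for 12 Wnt genes 0.04 and for 35 autism-associated genes -0.01 (17 positive, 18 negative). The 9 CHD remodeller genes had a median of 0.08. Of 79 ribosomal protein genes 66 had a log2 difference above 0, where 5068 of all 9825 genes did, with a median of 0.25, and none was called. With the replicate block, 11 of 81 had an unadjusted p under 0.05, all higher, where 347 of all 10318 genes were higher at that p, and again none was called. Their share of member UMIs was 0.200% in WT and 0.233% in Chd8het libraries (exact permutation p = 0.457).

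Whether the genotype difference was another in members than in Vip-type nuclei was tested as an interaction. It was called in 0 of 9679 genes (0%) by the edgeR quasi-likelihood test, 406 had an unadjusted p under 0.05, and the DESeq2 Wald test called 0 (72 at unadjusted p under 0.05). Without predicted doublets 3 genes passed, St18, Pde3a and A330008L17Rik, all with a higher difference in members. St18 encodes a zinc finger factor that is also known from oligodendrocytes.

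Index type is the technical batch that the labels name. Against single-indexed libraries, 530 of 10318 genes were higher (5.14%) and 333 lower (3.23%) in dual-indexed libraries at adjusted p under 0.05 (edgeR quasi-likelihood test with sex and genotype in the model). The DESeq2 Wald test called 226 higher and 70 lower. Rarb rose from 18.8 ± 19.7 to 151 ± 78.4 CPM (mean ± SD, n = 4 each; log2 3.06), Foxp2 from 17.3 ± 5.98 to 69.7 ± 25.7 CPM and Trpm3 from 195 ± 75.6 to 444 ± 145 CPM. The 20 nuclei rich in Rarb, all but 1 from dual-indexed libraries, held 87.4% of the Rarb and 67.3% of the Foxp2 UMIs of members. Their part in the index differences was not tested. AY036118 and Gm47027, the latter antisense to Grip1, also rose. Npy fell from 526 ± 80.8 to 240 ± 59.5 CPM (log2 -1.14, adjusted p = 3.73e-06), with library values of 526, 168, 590 and 314 CPM in WT and 412, 243, 577 and 234 CPM in Chd8het libraries. The 4 single-indexed libraries all lay above the 4 dual-indexed ones, in both genotypes. Malat1, a nuclear RNA, Slc32a1, the vesicular GABA transporter gene, Pcsk1n and Atp6v0b also fell. Of 24 synaptic adhesion genes 7 rose, and 3 of 9 nitric oxide and gap junction genes did (Gucy1a1, Pde5a and Prkg1). Without WT male 1, WT male 2, Chd8het male 1 or Chd8het female 1 the number of calls was 500, 489, 501 or 571. Index type was the same as replicate number and was balanced over genotype and sex.

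As a check of the sex labels, 8 of 10318 genes (0.0775%) differed between female and male libraries. Xist and Tsix were higher in females, and Xist, which Tsix overlaps, was at 925 to 1466 CPM in the 4 female and under 1 CPM in the 4 male libraries. Lower in females were Uty, Eif2s3y, Kdm5d and Ddx3y, which are Y-linked, and Ralyl and Pcdh11x.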

How the data were processed

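RNA of nuclei was counted in 8 libraries. The values deposited by the authors are whole-number UMI counts per gene and barcode for 32285 genes, with the barcodes already limited. Per the submitters' processing notes, the build was mm10 and the tools were STAR 2.7.9a, STARsolo and Cell Ranger. Whether counting used strand and intron reads is not given in the sources used here.

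From these counts, nuclei were chosen by the stated rule and summed per library. The members and the gene lists were chosen with earlier results of these data known. Doublets were predicted with Scrublet (scanpy 1.11.5, expected rate 0.8% per 1000 nuclei). The 49 predicted among members (4.88%) were kept, and leaving them out was an alternative. Genes passed the edgeR 4.0.16 filter (minimum count 10), TMM factors scaled the sums, and the quasi-likelihood test was used with Benjamini-Hochberg adjustment over all genes tested (R 4.3.3). Genotype was fitted with sex, index type with sex and genotype, sex with genotype and index type, and the Lamp5 division with library. The interaction with Vip-type nuclei was fitted with library and class. SEs were derived from the F statistic. DESeq2 1.42.0 was an alternative. Scripts were tested on simulated data.

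Named genes were those called with or without the replicate block, then those with the smallest p that kept their direction in 4 of 4 pairs at a mean log2 CPM of at least 4, to 12 each way. For the Lamp5 division they were the 12 largest called differences each way with the same direction in 8 of 8 libraries and a mean log2 CPM of at least 5, and for index type the 5 smallest p each way. Genes of the lists were named as well. Some genes that met these rules are not reported here.

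Pairs are not identified in the labels, so each WT library was paired with the Chd8het library that shares its sex and replicate number. Deviations from the genotype means correlated in every pair (r 0.223 to 0.357 over genes). Those of libraries of the same index type and other sex correlated at 0.102 to 0.184, and those of other index type at -0.318 to -0.0934. The libraries of a pair share both sex and index type, so litter cannot be told apart from these together. Coordinates and overlaps are those of GENCODE M21 (GRCm38), where 32235 of 32285 gene identifiers were found. Binomial intervals cover counting error only.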

Additional observations from a re-analysis of the deposited data

Results flagged for a closer look

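Of 56 groups of 4 libraries examined, 5 had 1 library far from the other 3, and chance gives about 1 in 20 such groups. Chd8het female 2 stood apart in the division by Lamp5, with 39.7% Lamp5-positive members against 24.8% to 26.4% in the other Chd8het libraries and 34.1% Lamp5-negative members against 44.3% to 46.4%. These 2 shares are not independent of each other. The same library was low for Nars (41.7 CPM against 52.2 to 54.3 CPM) and high for Gm49127 (25.5 CPM against 13.0 to 14.5 CPM). Etv1 was at 18.1 CPM in Chd8het female 1 against 26.1 to 27.4 CPM in the other Chd8het libraries.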

How the results depend on the processing

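The 0 calls by genotype became 18 (14 higher, 4 lower) with no filter on low counts, 5 with index type added (Rarb, Foxp2, Trpm3 and St6galnac3 among them) and 2 with the replicate block, and stayed at 0 in the other alternatives, including each library left out. Alternatives to the replicate block fit were chosen after seeing the data and gave 1 to 28 calls with 1 library left out, 5 without doublets (Rarb, St6galnac3, St18, Zfpm2 and Dach1) and 3 with the DESeq2 Wald test (Rarb, Trpm3 and Grin2a). The cause was not tested. The interaction with Vip-type nuclei gave 11 calls with no filter, 3 without doublets, 1 under a stricter gate (A330008L17Rik) and 0 to 1 with 1 library left out (Pde3a, without Chd8het female 1). The Lamp5 division gave 297 calls with DESeq2 and 399 to 494 with 1 library left out. Index type gave 296 with DESeq2 and 489 to 908 with 1 library left out. The genotype difference in the share of members per library ran from -0.173 to 0.0279 percentage points with 1 library left out, the last without WT male 2. The block left that difference at -0.09 points (exact sign-flip permutation p = 0.375). Over the single genes named, no alternative turned a direction. Most genotype and all Lamp5 genes were chosen for a direction shared by all pairs or all libraries, so nothing is read from that. In the Lamp5 division 345 values kept their side of the threshold and 10 lost it, and by index type 130 kept it. By genotype 35 values gained a call, and the 606 that kept their side were not called. With 110 to 146 nuclei per library, genes of low count could not be tested.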
